A study of Mus musculus with 12 samples.

Results

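10 genes of the NF-kB pathway were followed across mouse peritoneal macrophages: Tnf, Traf1, Sod2, Nfkbia, Nfkbie, Nfkb1, Nfkb2, Relb, Bcl3 and Tnfaip3. They were chosen by role, as NF-kB subunits, feedback inhibitors and direct targets, and selected on measured values: the differences on these arrays with red blood cells (RBC) against none, and between macrophages of both diets. Those differences are therefore given as a description. The list has 10 genes, of which 9 had a probe set with a single gene symbol among the 19938 genes tested, 1 probe set each. Nfkb1 was not analysed here. C57BL/6 mice were put on a high-fat or a chow (control) diet at 6 weeks of age for 12 weeks, and macrophages were then washed from the peritoneum after thioglycollate injection and left to take up RBC of high-fat-fed mice, RBC of chow-fed mice or no RBC. This gives 6 groups of 2 arrays (12 in all): high-fat macrophages with high-fat RBC, with chow RBC and without RBC, and chow macrophages with the same 3 conditions. The arrays of a group carry animal numbers 1 and 2, and the labels do not say whether a number marks the same donor in different groups. All values are log2 signals as deposited, so a difference of 1 is a doubling, and levels of different probe sets cannot be set against each other.

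NF-kB is a family of dimeric transcription factors held in the cytoplasm by inhibitor (IkB) proteins until an upstream kinase complex marks the inhibitor for destruction. In macrophages the factors then switch on cytokine genes such as Tnf, together with their own inhibitors, which close a negative feedback loop. A slower branch runs through the precursor encoded by Nfkb2 and its partner Relb.

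Feedback of this kind works through kappa-B sites in promoters, so the promoter windows of the members were read from RefSeq (build GRCm38.p6; 250 bases before to 50 after the annotated start). Windows were found for 8 of the 10 genes, 11 windows in all. The kappa-B consensus, a 10-base motif, was searched on both strands. It lay in 6 of the 8 genes and in 8 of 11 windows, against 5.14% of 27025 genes and 4.51% of 32851 windows in the RefSeq table. Since the members were chosen as NF-kB subunits, feedback inhibitors and direct targets, their share is a description only. Nfkb2 has 3 annotated starts, and the windows of the later starts overlap and share a match. Tnfaip3 has another annotated start besides the one shown, and its window holds no match. The stretches before the start are shown for an inhibitor (Nfkbia), the ubiquitin-editing feedback gene Tnfaip3, the subunit gene Nfkb2 and, as a window with no consensus match, Tnf; capitals mark the consensus matches on either strand.
Nfkbia promoter (chr12:55492648-55492897, minus strand): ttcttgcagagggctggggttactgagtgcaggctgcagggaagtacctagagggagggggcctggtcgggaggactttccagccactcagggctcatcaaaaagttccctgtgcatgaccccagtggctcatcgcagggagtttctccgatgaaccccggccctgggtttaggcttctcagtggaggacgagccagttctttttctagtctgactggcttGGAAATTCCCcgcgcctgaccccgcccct
Tnfaip3 promoter (chr10:19015411-19015660, minus strand): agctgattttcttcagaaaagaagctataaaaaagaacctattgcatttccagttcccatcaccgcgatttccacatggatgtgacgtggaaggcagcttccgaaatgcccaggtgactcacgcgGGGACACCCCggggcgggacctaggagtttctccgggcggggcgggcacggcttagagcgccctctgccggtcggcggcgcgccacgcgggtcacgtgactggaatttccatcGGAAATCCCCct
Nfkb2 promoter (chr19:46304487-46304736, plus strand): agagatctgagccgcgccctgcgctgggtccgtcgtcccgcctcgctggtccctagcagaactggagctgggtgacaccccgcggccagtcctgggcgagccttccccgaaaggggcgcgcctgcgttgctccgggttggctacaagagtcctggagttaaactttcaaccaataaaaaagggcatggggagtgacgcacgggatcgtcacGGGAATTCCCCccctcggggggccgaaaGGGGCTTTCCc
Tnf promoter (chr17:35202008-35202257, minus strand): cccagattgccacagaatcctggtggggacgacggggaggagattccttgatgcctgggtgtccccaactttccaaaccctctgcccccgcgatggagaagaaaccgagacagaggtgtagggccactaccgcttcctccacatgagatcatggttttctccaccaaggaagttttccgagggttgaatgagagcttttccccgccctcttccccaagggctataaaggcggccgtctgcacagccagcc
Counted from the annotated start, the match in Nfkbia begins at base -29 and those in Tnfaip3 at bases -125 and -12. In Nfkb2 matches on opposite strands at base -39 overlap another at -38, and a further match begins at -11. Bcl3 has its match after the start, outside the stretch of 250 bases. Nfkbie and Sod2 have theirs upstream, and Traf1 and Tnf have none in this window, which says nothing about sites elsewhere.

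Across the arrays, every one of the 9 measured members had its 2 highest values on the 2 arrays of unexposed chow macrophages. The other 5 groups lay close together for most members. Beside this, the mean log2 level of 7 macrophage markers was 9.71 to 9.80 in unexposed high-fat and 10.17 to 10.19 in unexposed chow macrophages. On exposed arrays it was 9.92 to 9.97 in high-fat and 10.11 to 10.22 in chow macrophages. Cd68, a lysosomal glycoprotein, lay between 12.09 and 12.21. Of the 7 macrophage markers, 3 were called lower and 1 higher in high-fat than in chow macrophages without RBC. Of all genes, 5.82% were called lower and 8.12% higher there. Fcgr1, an antibody receptor, differed most, at 6.53 and 6.40 in high-fat and 8.29 and 8.26 in chow macrophages (-1.81 ± 0.11), with Csf1r at -0.81 ± 0.10 and Mertk at 0.51 ± 0.11. Adgre1, a surface marker of mature macrophages, was at 9.03 and 8.93 in unexposed high-fat macrophages and at 10.08 and 10.21 in unexposed chow macrophages. In chow macrophages with high-fat RBC, Adgre1 (-0.67 ± 0.11) and Csf1r (-0.42 ± 0.10) were lower and Mertk (0.74 ± 0.11) higher than without. In high-fat macrophages Fcgr1 was higher with high-fat RBC (0.82 ± 0.11). Fcgr1 stayed lower in high-fat than in chow macrophages given high-fat RBC (-1.20 ± 0.11) or chow RBC (-1.29 ± 0.11). Markers of other cells moved as well. The mean level of 4 B cell markers was 4.02 to 4.15 in unexposed high-fat macrophages against 5.38 to 5.57 in unexposed chow macrophages, and 4.08 to 4.23 and 4.71 to 5.04 in the exposed high-fat and chow macrophages. The 9 neutrophil markers averaged 6.31 to 6.69 on exposed against 5.18 to 5.50 on unexposed arrays, and the 6 platelet markers 6.66 to 7.29 against 5.50 to 6.00. With high-fat RBC, S100a9 differed by 5.36 ± 0.14 in chow and 6.72 ± 0.14 in high-fat macrophages, and Ppbp by 3.50 ± 0.30 and 4.65 ± 0.30. Camp, Ngp and Ltf lay between 3.25 and 4.76 on all arrays. Pf4 was at 10.63 to 10.83 on exposed and 10.92 and 10.87 on unexposed chow arrays. With high-fat RBC 5 of 9 neutrophil markers and 3 of 6 platelet markers were called higher in macrophages of either diet. The background of genes called higher was 0.647% in high-fat and 5.41% in chow macrophages. Without RBC 4 of 4 B cell markers were called lower in high-fat macrophages (background 5.82%). T cell markers (0 of 4 called) averaged 4.23 to 4.63. Red cell precursor markers averaged 5.0 to 5.67 on exposed and 4.77 to 4.93 on unexposed arrays. With high-fat RBC 0 of 4 of these were called higher in high-fat and 1 of 4 in chow macrophages (Bpgm, 0.86 ± 0.14). With chow RBC it was 1 of 4 in high-fat (Alas2, 1.97 ± 0.24) and 2 of 4 in chow macrophages (Alas2, 1.10 ± 0.24, and Bpgm, 1.03 ± 0.14). The background of genes called higher with chow RBC was 0.557% in high-fat and 6.23% in chow macrophages. Without RBC Bpgm was higher in macrophages of high-fat mice (0.75 ± 0.14, high-fat minus chow). The part of these cells in the results was not tested, and in such bulk RNA fewer cells of a type and less RNA per cell cannot be told apart. The replicates of the unexposed high-fat macrophages differed most, with an SD over all genes of 0.240 for replicate 1 minus replicate 2 against 0.151 to 0.190 in the other groups.

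**Figure D1:**
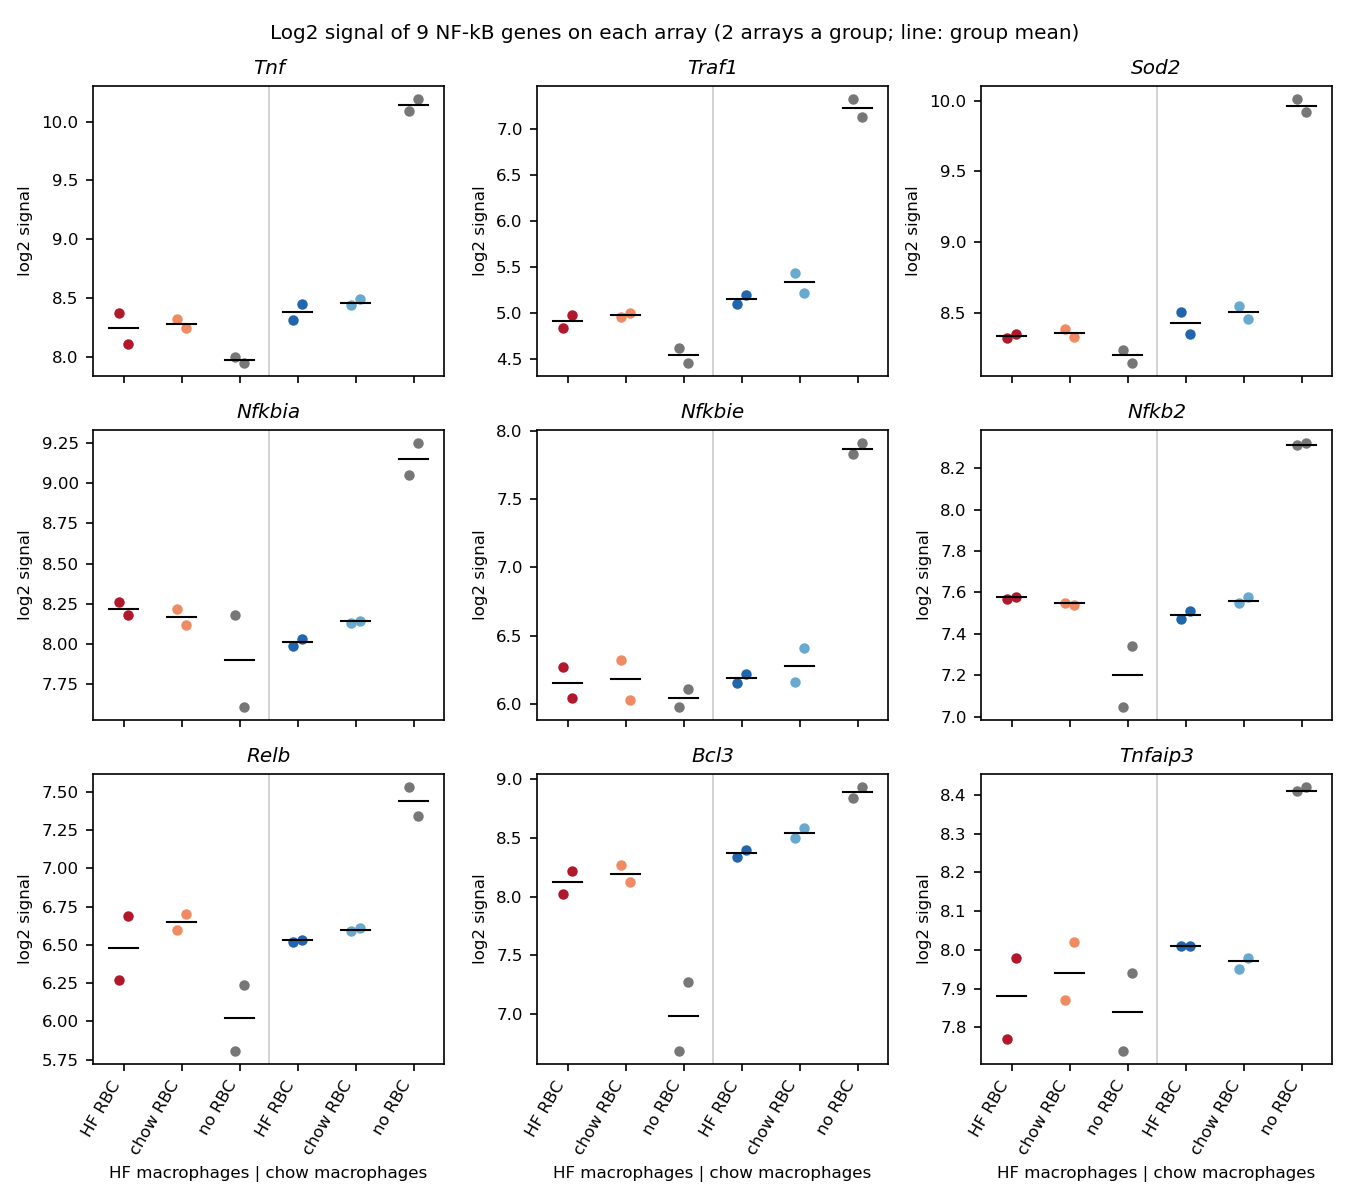
Log2 signal (vertical axis) of the 9 measured members on each of 12 arrays (points) with the group mean (line); high-fat (HF) macrophages are left of the grey line and chow macrophages right of it. In every panel both unexposed chow arrays lie above the other 10, and for Bcl3 the unexposed high-fat arrays lie far below the rest.

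Tnf encodes tumour necrosis factor, the cytokine that both follows from and feeds NF-kB activity. Its log2 signal in high-fat macrophages was 8.37 and 8.11 with high-fat RBC, 8.32 and 8.24 with chow RBC and 8.0 and 7.95 without RBC. In chow macrophages it was 8.31 and 8.45 with high-fat RBC, 8.44 and 8.49 with chow RBC, and 10.09 and 10.19 without RBC. All 8 exposed arrays thus fell within 0.38 of each other, above both unexposed high-fat arrays and far below both unexposed chow arrays.

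Nfkb2 encodes the p100 precursor of the p52 subunit, and Relb its usual partner. For Nfkb2 the high-fat macrophages gave 7.57 and 7.58 with high-fat RBC, 7.55 and 7.54 with chow RBC and 7.05 and 7.34 without RBC. The chow macrophages gave 7.47 and 7.51, 7.55 and 7.58, and 8.31 and 8.32 in the same order. The exposed arrays spanned only 0.11, the narrowest range among the 9 members. Relb was at 6.27 and 6.69 with high-fat RBC, 6.60 and 6.70 with chow RBC and 5.81 and 6.24 without RBC in high-fat macrophages. In chow macrophages its values were 6.52 and 6.53 with high-fat RBC, 6.59 and 6.61 with chow RBC, and 7.53 and 7.34 without RBC. For both genes the unexposed high-fat arrays were the lowest of the 12 and the unexposed chow arrays the highest.

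Nfkbia and Nfkbie encode the inhibitors IkB-alpha and IkB-epsilon. Nfkbia was at 8.26 and 8.18 with high-fat RBC, 8.22 and 8.12 with chow RBC and 8.18 and 7.61 without RBC in high-fat macrophages. Chow macrophages had 7.99 and 8.03 with high-fat RBC, 8.13 and 8.14 with chow RBC, and 9.05 and 9.25 without RBC. Its unexposed high-fat arrays differed by more than the 8 exposed arrays did among themselves, 1 of them lying within the exposed range. Nfkbie was at 6.27 and 6.04 with high-fat RBC, 6.32 and 6.03 with chow RBC and 5.98 and 6.11 without RBC in high-fat macrophages, values that overlap. In chow macrophages it was at 6.15 and 6.22, 6.16 and 6.41, and 7.83 and 7.91 in that order, so that its unexposed arrays stood alone.

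Bcl3 encodes an atypical IkB protein that sits in the nucleus on p50 or p52 dimers and can activate transcription. It had another profile. In high-fat macrophages it was at 8.02 and 8.22 with high-fat RBC, 8.27 and 8.12 with chow RBC and 6.69 and 7.27 without RBC. Chow macrophages gave 8.34 and 8.40 with high-fat RBC, 8.50 and 8.58 with chow RBC, and 8.84 and 8.93 without RBC. Here the group that stood apart was the unexposed high-fat one, whose higher array (7.27) lay well below the lowest exposed array (8.02). Tnfaip3, whose product A20 edits ubiquitin chains and ends the signal, varied least, between 7.74 and 8.42. High-fat macrophages had 7.77 and 7.98, 7.87 and 8.02, and 7.74 and 7.94 with high-fat RBC, chow RBC and no RBC, and chow macrophages 8.01 and 8.01, 7.95 and 7.98, and 8.41 and 8.42.

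Traf1, an adaptor of TNF receptors, and Sod2, the mitochondrial superoxide dismutase, are target genes. Traf1 was at 4.84 and 4.98 with high-fat RBC, 4.96 and 5.0 with chow RBC and 4.62 and 4.46 without RBC in high-fat macrophages. In chow macrophages it was at 5.10 and 5.19, 5.43 and 5.22, and 7.32 and 7.13 in that order, the widest range of any member. Sod2 was at 8.32 and 8.35, 8.39 and 8.33, and 8.24 and 8.15 in high-fat macrophages. In chow macrophages Sod2 was at 8.51 and 8.35, 8.55 and 8.46, and 10.01 and 9.92. In both genes the exposed arrays of either diet lay above the unexposed high-fat and far below the unexposed chow arrays. They spanned 0.23 for Sod2 and 0.59 for Traf1, the widest exposed span among the 9 members.

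How the macrophages differed without RBC can be read from the 4 unexposed arrays. High-fat macrophages were lower for 9 of 9 members, with a median difference of -1.77 against -0.01 over all genes. The difference ± SE was -2.69 ± 0.11 for Traf1, -2.16 ± 0.11 for Tnf, -1.91 ± 0.15 for Bcl3, -1.83 ± 0.13 for Nfkbie and -1.77 ± 0.10 for Sod2. For the subunits it was -1.42 ± 0.15 (Relb) and -1.11 ± 0.10 (Nfkb2), and for Nfkbia and Tnfaip3 -1.25 ± 0.15 and -0.57 ± 0.11. On a linear scale Traf1 was 6.45-fold and Tnf 4.48-fold lower. Traf1 in unexposed high-fat macrophages (4.62 and 4.46) lay below the medians of those arrays (4.96 and 4.88), and its signal over background is unknown. All 9 were called lower by limma at an adjusted p below 0.05 over all genes, where 5.82% of genes were called lower and 13.9% in either direction, and since the members were picked with this pattern known nothing is read from the count.

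Among macrophages given RBC, the members differed less between the diets than among unexposed macrophages. The difference between high-fat and chow macrophages had a median of -0.09 over members given high-fat RBC (range -0.25 to 0.21) and of -0.11 over members given chow RBC (range -0.35 to 0.05). None of the 9 members was called by limma with either RBC, while 1.36% of all genes were called in either direction after high-fat RBC and 2.47% after chow RBC. At an unadjusted p below 0.05 there were 0 members after high-fat RBC, where 1934 of 19938 genes were, and 2 after chow RBC, where 2626 genes were. The 95% intervals over members ran from -0.57 to 0.52 after high-fat RBC and from -0.67 to 0.37 after chow RBC, so differences of that size remain possible. The largest estimates were -0.35 ± 0.11 for Traf1 and -0.35 ± 0.15 for Bcl3 with chow RBC.

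**Figure D2:**
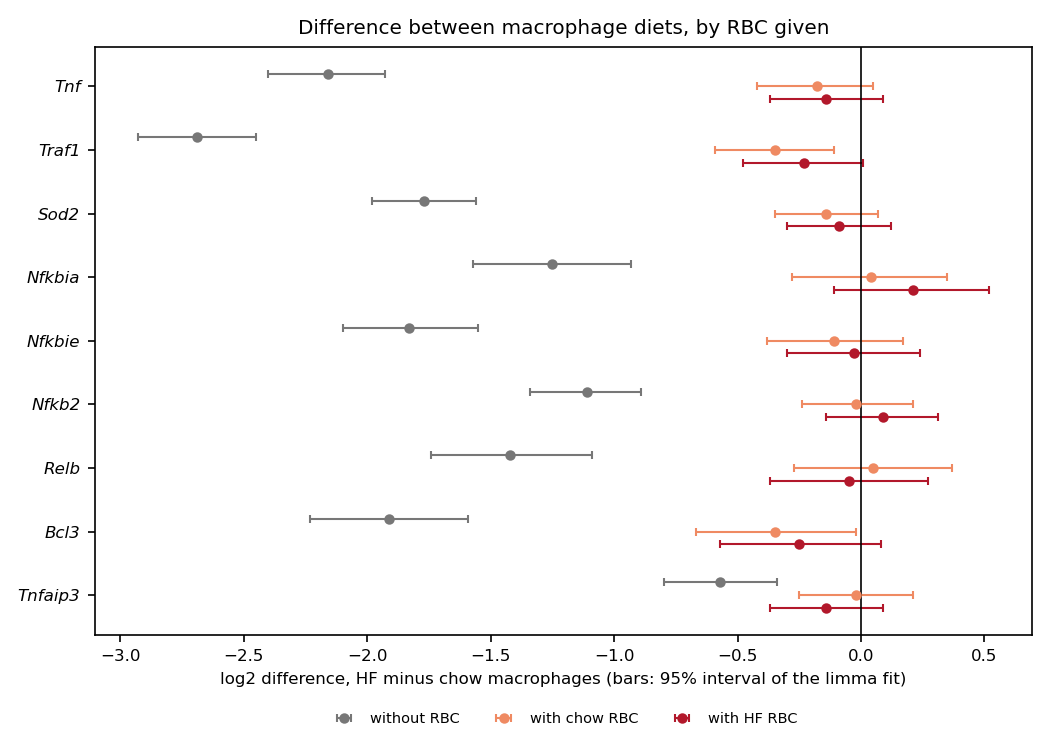
Log2 difference, high-fat minus chow macrophages (horizontal axis), for each member without RBC (grey), given chow RBC (orange) or given high-fat RBC (red); bars are 95% intervals of the limma fit. Without RBC the points lie between -2.69 and -0.57, and with RBC between -0.35 and 0.21.

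In chow macrophages the members were lower with RBC than without. With high-fat RBC the difference was -2.08 ± 0.11 for Traf1, -1.76 ± 0.11 for Tnf, -1.68 ± 0.13 for Nfkbie, -1.53 ± 0.10 for Sod2 and -1.14 ± 0.15 for Nfkbia. The subunits and the remaining regulators differed less, by -0.91 ± 0.15 (Relb), -0.82 ± 0.10 (Nfkb2), -0.52 ± 0.15 (Bcl3) and -0.40 ± 0.11 (Tnfaip3). With chow RBC the same members were at -1.90 (Traf1), -1.68 (Tnf), -1.58 (Nfkbie), -1.46 (Sod2) and -1.01 (Nfkbia). Relb, Nfkb2, Tnfaip3 and Bcl3 were then at -0.84, -0.75, -0.45 and -0.35. For every member all 4 exposed chow arrays lay below both unexposed ones, and both comparisons use those 2 arrays. Limma called 9 of 9 members lower with high-fat RBC and 8 of 9 with chow RBC (all but Bcl3), where 2.93% and 2.94% of all genes were called lower (8.34% and 9.18% in either direction), and nothing is read from these counts.

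The calls for Tnfaip3 and Bcl3 rested on few arrays. Tnfaip3 lost its call with chow RBC when any 1 of the 4 arrays compared was left out (limma adjusted p = 0.0677 to 0.113). The same held with high-fat RBC (0.111 to 0.168). Bcl3 passed barely with high-fat RBC (limma adjusted p = 0.0496) and not without any 1 of 10 arrays, all but the unexposed high-fat ones (0.0527 to 0.255). With chow RBC Bcl3 passed once either array of high-fat macrophages without RBC was dropped (0.0437 each).

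In high-fat macrophages all 9 estimates lay above 0, and Bcl3 alone was called. It was higher by 1.14 ± 0.15 with high-fat RBC and by 1.22 ± 0.15 with chow RBC, 2.21-fold and 2.33-fold, and 4 of 4 exposed arrays lay above both unexposed ones. Relb (0.46 ± 0.15 and 0.63 ± 0.15), Traf1 (0.38 ± 0.11 and 0.44 ± 0.11), Nfkb2 (0.38 ± 0.10 and 0.35 ± 0.10) and Tnf (0.27 ± 0.11 and 0.31 ± 0.11) were not called, though their exposed arrays, like those of Sod2, also lay above both unexposed ones. Sod2 was at 0.14 and 0.17, Nfkbia at 0.32 and 0.28, Nfkbie at 0.11 and 0.13 and Tnfaip3 at 0.04 and 0.10, with high-fat and chow RBC. The background of genes called higher was 0.647% with high-fat and 0.557% with chow RBC (0.752% and 0.647% in either direction), and the single call in each comparison is again a description. Both comparisons share the unexposed arrays, whose replicates were far apart for several members. Without replicate 2 of these, Nfkb2 passed with high-fat and chow RBC (0.52 and 0.49, limma adjusted p = 0.0294 and 0.0323) and Relb with chow RBC (0.84, adjusted p = 0.0194); Relb also passed there with an intensity trend and robust eBayes (0.63, adjusted p = 0.0459). Without replicate 1, Nfkbia passed with high-fat RBC (0.61 in place of 0.32, limma adjusted p = 0.0474). With a fit of just the 4 arrays compared, Bcl3 was not called with high-fat or chow RBC (limma adjusted p = 0.0804 and 0.0507).

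**Figure D3:**
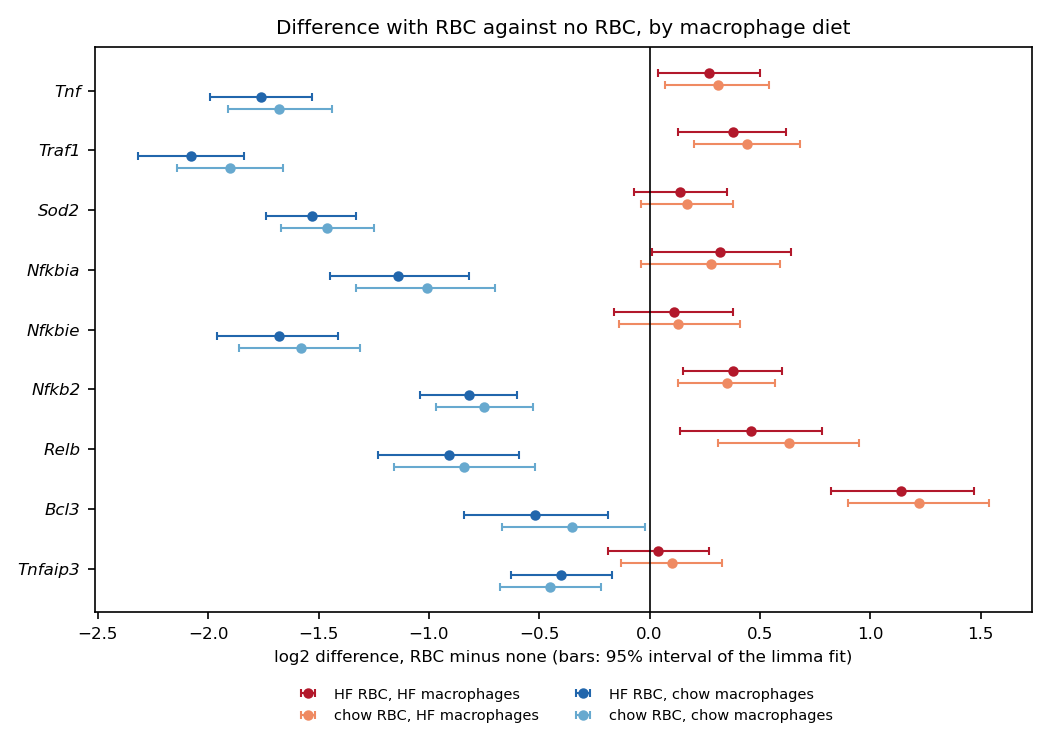
Log2 difference, RBC minus no RBC (horizontal axis), for each member in high-fat macrophages (red, orange) and chow macrophages (dark and light blue) given high-fat or chow RBC; bars are 95% intervals of the limma fit. All points of chow macrophages lie below 0, from -2.08 to -0.35, and all points of high-fat macrophages above 0, from 0.04 to 1.22.

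The response to RBC, averaged over both kinds, was therefore further up in high-fat macrophages for each member. The difference of responses was 2.40 ± 0.14 for Traf1, 2.00 ± 0.13 for Tnf and 1.61 ± 0.18 for Bcl3, with a median of 1.61 over the 9 members against 0.02 over all genes. Limma called 9 of 9 members, where 2.57% of genes were called in this direction and 3.10% in the other; the members were chosen with this contrast known. The smallest difference of responses, 0.49 ± 0.13 for Tnfaip3, was not called when any 1 of 9 arrays was left out (limma adjusted p = 0.0657 to 0.158). Where the exposed arrays lay between the unexposed groups set the members apart. As a share of the way from the unexposed high-fat mean up to the unexposed chow mean, the mean of the 8 exposed arrays lay at 8.6% for Nfkbie, 12.0% for Sod2, 17.0% for Tnf, 19.0% for Nfkbia, 19.2% for Tnfaip3 and 20.6% for Traf1. It was at 31.0% for Nfkb2, 38.3% for Relb and 69.6% for Bcl3. For Bcl3 most of the gap thus lay between exposed and unexposed high-fat macrophages, and for the others between exposed and unexposed chow macrophages.

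Whether RBC of high-fat mice acted differently from RBC of chow mice was tested as a contrast of exposed groups, whose estimates take no value from the unexposed arrays; the standard errors pool the spread of all 12 arrays, the unexposed ones included, and results of these data were known when the contrast was set. No difference was found for any member. In high-fat macrophages the estimates ran from -0.17 to 0.05 (high-fat minus chow RBC), with 0 of 9 called by limma, 0 at an unadjusted p below 0.05 and a smallest unadjusted p of 0.27, while 0.0251% of all genes were called. In chow macrophages they ran from -0.18 to 0.05, with 0 of 9 called by limma, 0 at an unadjusted p below 0.05 and a smallest unadjusted p of 0.125, and 0% of all genes called. Tnf differed by -0.04 (95% interval -0.27 to 0.19) in high-fat and by -0.08 (-0.31 to 0.15) in chow macrophages. For Bcl3 the difference was -0.07 (-0.40 to 0.25) and -0.17 (-0.50 to 0.15), and for Relb, the least precise with Nfkbia and Bcl3, -0.17 (-0.49 to 0.15) and -0.07 (-0.39 to 0.25). Over all members the intervals reached from -0.49 to 0.36 in high-fat and from -0.50 to 0.28 in chow macrophages, and differences within each gene's interval remain possible. The difference between these 2 differences had 0 of 9 members called by limma, 0 at an unadjusted p below 0.05 (0% of all genes called), with estimates from -0.11 to 0.17.

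**Figure D4:**
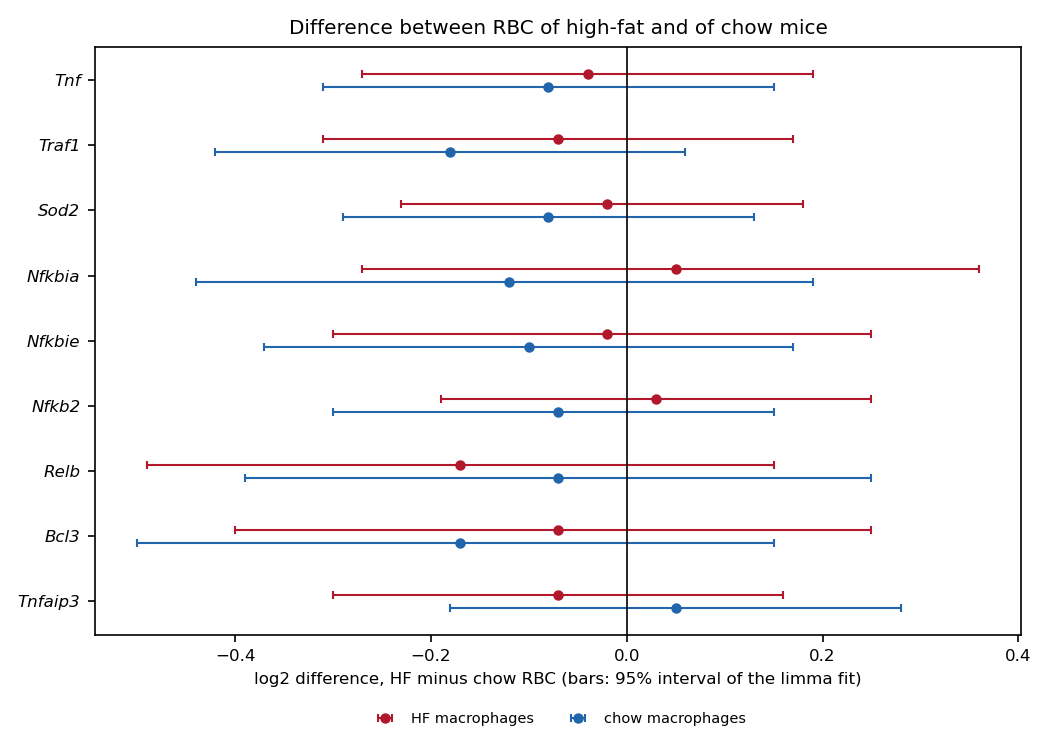
Log2 difference, high-fat minus chow RBC (horizontal axis), for each member in high-fat (red) and chow (blue) macrophages; bars are 95% intervals of the limma fit. Every interval includes 0, and the estimates lie between -0.18 and 0.05.

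The rest of the pathway was read from 8 lists with 67 of 73 genes measured. Without RBC, 33 of the 67 genes were lower and 1 was higher in high-fat than in chow macrophages, with a median of -0.42 against -0.01 over all genes, of which 5.82% were called lower and 8.12% higher. The remaining subunit genes Rel and Rela were lower by limma, at -1.0 ± 0.11 (adjusted p = 2.37e-05) and -0.57 ± 0.09 (adjusted p = 0.00089). Of 3 further IkB genes, Nfkbib (-1.13 ± 0.10, limma adjusted p = 1.82e-06) and Nfkbiz (-0.74 ± 0.14, adjusted p = 0.002) were lower, and Nfkbid was at -0.02. Among 6 kinases 2 were lower, Ikbke, which encodes an IKK-related kinase, by -0.98 ± 0.10 (limma adjusted p = 6.59e-06) and Map3k14, the kinase of the slower branch, by -0.42 ± 0.12 (adjusted p = 0.0285). Map3k14 lost its call without replicate 2 of the unexposed chow macrophages (-0.25, adjusted p = 0.313) and when either unexposed high-fat array was dropped (0.0876 and 0.0749). Ikbkb, the catalytic kinase of the classical complex, was at 0.05.

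Receptors and adaptors split. Of 5 receptor genes Cd40 (-1.61 ± 0.11, limma adjusted p = 1.38e-07) and Tnfrsf1b, the second TNF receptor (-0.97 ± 0.11, adjusted p = 1.9e-05), were lower, while Tnfrsf1a, the first, was at -0.23 and Tlr4 at -0.01. Of 11 adaptors 5 were lower, among them the ubiquitin ligase Birc3 (-1.31 ± 0.14, limma adjusted p = 1.26e-05), Traf2 (-0.78 ± 0.10) and Myd88 (-0.74 ± 0.10). Of 11 further negative regulators 5 were lower, led by Irak3, an inhibitory member of the IRAK family (-1.53 ± 0.12, limma adjusted p = 1.05e-06), Tnip3, of the A20-binding family (-1.77 ± 0.18), and Tank (-0.75 ± 0.11). Of 9 genes of Tnf mRNA decay and shedding 3 were lower: the shedding protease Adam17 (-0.65 ± 0.14), its partner Rhbdf2 (-0.71 ± 0.09) and Zfp36, which destabilises Tnf mRNA (-0.78 ± 0.12). Adam17 was not called without replicate 1 of the unexposed high-fat macrophages (-0.46, limma adjusted p = 0.0536). Among 20 other NF-kB targets 12 were lower and 1 higher, with the chemokine genes Cxcl2 at -5.19 ± 0.15 and Ccl5 at -4.75 ± 0.14 (limma adjusted p = 4.37e-11 and 6.55e-11). The 1 higher gene was the survival gene Bcl2l1 (0.45 ± 0.13, limma adjusted p = 0.0282), which did not pass once replicate 1 of chow macrophages (0.35, adjusted p = 0.198) or replicate 2 of high-fat macrophages (0.28, adjusted p = 0.204) was dropped.

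With RBC, fewer pathway genes were called between the macrophage diets than without RBC. With high-fat RBC 0 were higher and 2 lower of 67 (background 0.461% and 0.903%, higher and lower). With chow RBC 2 were higher and 6 lower (background 0.908% and 1.56%). The median difference over the 67 genes was -0.04 with high-fat and -0.08 with chow RBC, against -0.42 without RBC. Ccl5 stayed lower with high-fat RBC (-2.47 ± 0.14, limma adjusted p = 4.8e-07) and with chow RBC (-2.92 ± 0.14), and so did Cd40 (-0.60 ± 0.11, adjusted p = 0.00852, and -0.49 ± 0.11, adjusted p = 0.0271). Cd40 was not called with high-fat RBC without replicate 2 of the high-fat (-0.50, adjusted p = 0.122) or of the chow macrophages given them (-0.50, adjusted p = 0.189), nor with chow RBC without any 1 of the 4 arrays compared (0.0773 to 0.194). The counts of lower genes ranged from 1 to 2 with high-fat RBC and from 1 to 8 with chow RBC when 1 array was left out.

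**Figure D5:**
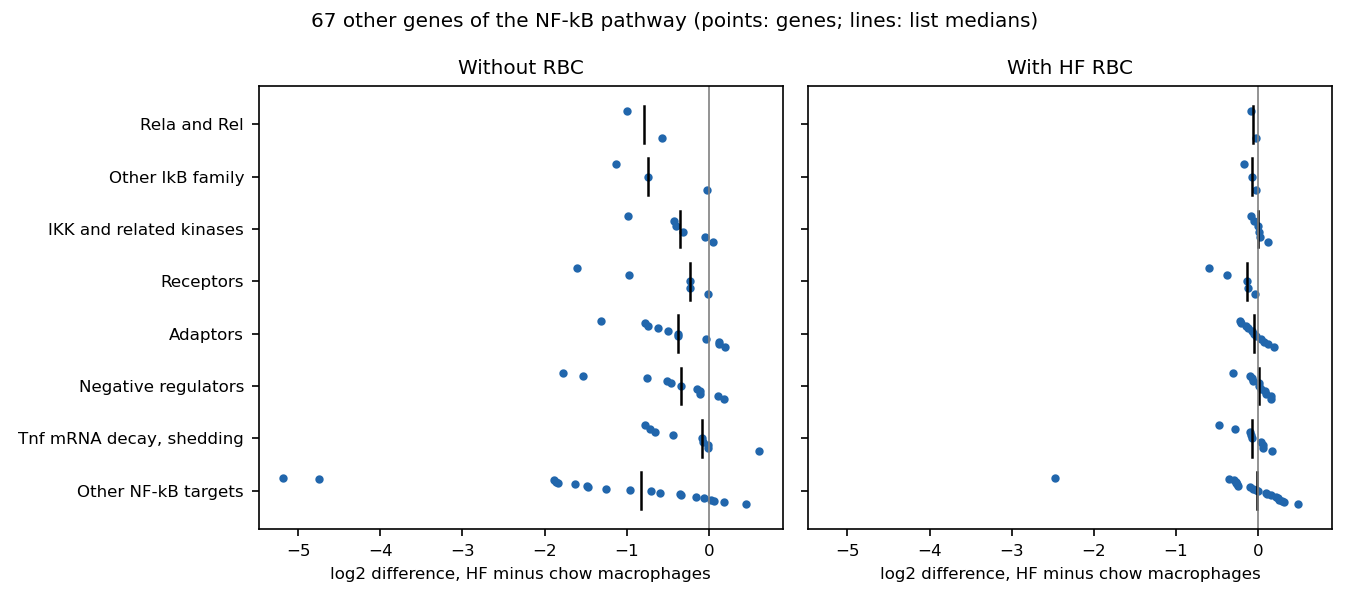
Log2 difference, high-fat minus chow macrophages (horizontal axis), of 67 other pathway genes (points) in 8 lists (rows) without RBC and with high-fat RBC; black lines are list medians. Without RBC the medians lie between -0.83 and -0.08, and with high-fat RBC between -0.14 and 0.01.

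In chow macrophages with RBC, 27 of the 67 pathway genes were lower and 3 higher after high-fat RBC, with 25 lower and 4 higher after chow RBC (background 2.93% and 5.41%, and 2.94% and 6.23%, lower and higher). Icam1, an adhesion molecule, fell by 1.80 ± 0.10 with high-fat RBC (limma adjusted p = 9.74e-08), and Cxcl2 was at -2.91 ± 0.15. Ikbke was at -0.89 ± 0.10 and Irak3 at -1.21 ± 0.12 in the same comparison. Timp3, a metalloproteinase inhibitor that also blocks Adam17, rose by 1.55 ± 0.20 with high-fat and 1.56 ± 0.20 with chow RBC (limma adjusted p = 0.000206 and 0.000204), while Adam17 and Rhbdf2 fell by 0.71 ± 0.14 and 0.60 ± 0.09 with high-fat RBC. Adam17 was not called without replicate 2 with high-fat RBC (limma adjusted p = 0.0528). Il6 rose by 0.78 ± 0.16 with either RBC. It was not called with high-fat RBC without replicate 1 given these (0.70, limma adjusted p = 0.0775), nor with chow RBC without replicate 2 given those (0.69, adjusted p = 0.0661).

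High-fat macrophages had 9 of 67 genes higher and 0 lower with high-fat RBC, and 5 higher and 1 lower with chow RBC (background 0.647% and 0.105%, and 0.557% and 0.0903%, higher and lower). These were mostly cytokine, chemokine and enzyme targets: 8 and 4 of the 20 other targets rose, with Cxcl2 at 2.77 ± 0.15, Il1b at 2.43 ± 0.15 and Ptgs2, an inducible prostaglandin synthase, at 1.74 ± 0.12 with high-fat RBC (limma adjusted p = 2.38e-07, 7.08e-07 and 2.94e-06). The 1 lower gene, with chow RBC, was Vcam1, an adhesion molecule (-0.59 ± 0.12, limma adjusted p = 0.035), a call lost without any 1 of 7 arrays (0.0541 to 0.271), with array weights (0.102) and with the compared arrays alone (0.149). Timp3 was called higher here as in chow macrophages, by 0.96 ± 0.20 with high-fat and 1.10 ± 0.20 with chow RBC (limma adjusted p = 0.042 and 0.0184). Timp3 was not called with the compared arrays alone (limma adjusted p = 0.401 and 0.244), nor with array weights for high-fat RBC (0.0566). Its call with high-fat RBC was lost without any single array except replicate 2 of the unexposed high-fat macrophages. With chow RBC it was lost without either array given these (1.14 and 1.05). Without replicate 1 of the unexposed high-fat macrophages the differences were 0.52 with high-fat and 0.66 with chow RBC. None of the subunit, IkB, kinase, receptor, adaptor or negative regulator genes passed in either comparison. With chow RBC the count of higher genes ranged from 3 to 9 when 1 array was left out, and with high-fat RBC from 5 to 10. Between the RBC kinds, 1 of 67 pathway genes passed in high-fat macrophages and 0 in chow macrophages (background 0.0251% and 0%). That gene was Il1b, higher with high-fat RBC by 1.05 ± 0.15 (limma adjusted p = 0.0264), a call that did not hold without any 1 of the 4 arrays compared (0.0904 to 0.362) or without either array of chow macrophages with chow RBC (0.0665 for each).

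The genes whose profile was most like that of Tnf over the 12 arrays, among all genes but the members, were Hp (Pearson r = 0.989), Ifi205 (0.987), Pde2a (0.986), Ptges (0.983) and Rassf4 (0.983). Hp encodes haptoglobin, which binds free haemoglobin, and was lower in high-fat than in chow macrophages without RBC by -3.37 on the log2 scale. The 5 genes most like Nfkbia were Arhgap20 (0.953), Vasp (0.952), Orai2 (0.949), Mllt6 (0.942) and Bpifc (0.939). These correlations are a description over arrays that fall into separate groups. Without the 2 unexposed chow arrays, r over the other 10 was 0.92 for Hp, 0.81 for Ifi205, 0.86 for Pde2a, 0.61 for Ptges and 0.80 for Rassf4, and 0.51 to 0.86 for the 5 genes like Nfkbia. Among the members themselves the 36 pairs had a median r of 0.91 over 12 arrays and of 0.14 (range -0.81 to 0.88) over the 8 exposed arrays, where their values hardly vary.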

How the data were processed

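Per the labels' protocols, RNA was purified with a Qiagen kit and amplified and biotin-labelled with Nugen kits; the table is of Affymetrix Mouse Gene 1.0 ST arrays. The values deposited for each probe set are log2 signals, a scale read from their range. The authors' summarization and normalization are not given in the sources used here, and signal over background is unknown. Array medians were 4.84 to 4.96. Of 35557 probe sets 35556 had values. Those with 1 gene symbol (21789) were kept, those with several (1621) or unlisted (12146) were not. The probe set of highest mean stood for each of 999 genes that had more than 1, which left 19938 genes, with no filter on low values.

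Group means were fitted with limma 3.58.1 (R 4.3.3) over the 12 arrays (residual df 6, prior df 7.69), and 11 contrasts were adjusted by Benjamini-Hochberg across the 19938 genes, with calls at 0.05. Errors are standard errors of that fit. The fit was also run on simulated data in which a gene's noise had the same spread in every group. Replicates here differed in spread between groups, so that run does not vouch for these errors. The labels number arrays as animals; p-values measure only the spread between these arrays.

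The members and lists were chosen with earlier results of these data known. By rule, the text could name members, up to 3 called genes per list, comparison and direction, and the 5 genes most like Tnf and Nfkbia; not all are named. Nfkbid, Ikbkb, Tnfrsf1a and Tlr4 without RBC were picked after their values were seen. The alternatives are those of the closing section.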

Additional observations from a re-analysis of the deposited data

Results flagged for a closer look

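The difference in the response to RBC, high-fat minus chow macrophages and averaged over both RBC kinds, was called above 0 for 9 of 9 measured members by the interaction term of the limma fit, where 2.57% of all genes were called in this direction and 5.67% in either. The difference was 2.00 for Tnf, 2.40 for Traf1, 1.65 for Sod2, 1.37 for Nfkbia, 1.76 for Nfkbie, 1.15 for Nfkb2, 1.42 for Relb, 1.61 for Bcl3 and 0.49 for Tnfaip3. The members were picked with this contrast known, so the count is a description. Tnfaip3 was not called when any 1 of 9 arrays was left out (limma adjusted p = 0.0657 to 0.158), and stayed called without any 1 of the other 3, which were replicate 1 of high-fat macrophages with either RBC and replicate 2 without RBC; it was also not called with array weights (0.0693).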

How the results depend on the processing

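The 9 lower calls of members without RBC held with each array left out, with medians of -1.79 to -1.62; at a 1.5-fold minimum Tnfaip3 (-0.57) lost its call there, in chow macrophages with either RBC and in the exposure interaction, and Bcl3 in chow macrophages with high-fat RBC. Members called higher in high-fat macrophages given chow RBC (1) became 2 at an adjusted p below 0.10, with an intensity trend and robust eBayes, or with the replicate block, the second being Relb (limma adjusted p = 0.0459 with the trend and 0.0261 with the block), and 0 with the compared arrays alone, as with high-fat RBC; leaving out 1 array gave 1 to 3 and 1 to 2. For the other pathway genes, the compared arrays alone gave 3 higher and 0 lower with chow RBC in high-fat macrophages (array weights 0 lower) and 5 higher with high-fat RBC. The 0 genes with a lower exposure interaction became 1 at 0.10, with quantile normalization, without the lowest 33.3% of genes, or with the trend. The 1 gene higher in high-fat macrophages without RBC became 2 under these 4 and the block, and 0 with a 1.5-fold minimum, array weights or the compared arrays. With chow RBC the 1.5-fold minimum left 0 higher and 3 lower, and the compared arrays 0 higher; with high-fat RBC the trend, weights and compared arrays gave 1 higher, the last also 1 lower. Between RBC kinds in high-fat macrophages the 1 higher gene became 0 (quantile, block, compared arrays), 3 (trend) or 2 (weights), and the RBC diet interaction 1 (compared arrays). With 1 array left out, higher and lower pathway counts were 2 to 4 and 20 to 25 (chow RBC, chow macrophages), 1 to 3 and 21 to 27 (high-fat RBC), 3 to 9 and 0 to 1 (chow RBC, high-fat macrophages), 5 to 10 and 0 (high-fat RBC), 24 to 28 and 0 to 1 (exposure interaction), 0 to 2 and 29 to 40 (diet without RBC), 0 to 2 and 1 to 8 (diet with chow RBC), and 0 to 1 and 1 to 2 (diet with high-fat RBC); higher counts were 0 to 2 and 0 to 1 for the RBC kind in high-fat macrophages and its interaction. Uncalled RBC kind differences changed sign with 1 array left out: Nfkbie in chow macrophages (-0.23 to 0.03), and in high-fat macrophages Tnf (-0.17 to 0.10), Nfkbie (-0.17 to 0.12), Relb (-0.38 to 0.04), Bcl3 (-0.17 to 0.02) and Tnfaip3 (-0.17 to 0.04); in the interaction Tnf (-0.09 to 0.18), Sod2 (-0.02 to 0.13), Nfkbie (-0.07 to 0.22) and Relb (-0.31 to 0.11). The cause was not tested. Correlations of replicate differences were -0.02 to 0.14 between chow and -0.08 to 0.34 between high-fat macrophage groups. With 1 such difference per group, they cannot tell whether an animal number marks the same donor. The exposure interaction compares all 12 arrays, so the setting with the compared arrays alone does not apply to it.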
